A study of Saccharomyces cerevisiae with 4 samples.

Results

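The 60S ribosome assembly factors studied here are 35 budding yeast genes whose products build the large ribosomal subunit, out of 6207 open reading frames (ORFs) on the array. They were taken by ORF name from a list of such factors, which was chosen with earlier results of these data known. Among them are NOP2, NOP4, NOP7, the GTPase genes NOG1, NOG2 and NUG1, and the helicase genes HAS1, MAK5 and the DBP group. Wild-type Saccharomyces cerevisiae, strain name not given in the sources used here, grew in YEPD rich medium at 24 °C. One part of each culture received Zymolyase 100T (5 units/ml), which breaks down wall glucan, and was collected at 3 h, and the other part of that culture grew on without the enzyme. RNA of 2 cultures was compared, treated against untreated part, on 4 two-colour arrays with the dyes swapped. Treated RNA carried Cy5 on arrays 2 and 4, called the Cy5 arrays here, and Cy3 on arrays 1 and 3, the Cy3 arrays. Which arrays share a culture is not given.

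Assembly of the large subunit starts in the nucleolus, where RNA polymerase I makes the ribosomal RNA (rRNA) precursor and assembly factors bind it as it is cut and folded. GTPases, RNA helicases, RNA-binding scaffolds and methyltransferases then act in turn, and the particle is handed to export factors that take it to the cytoplasm. In yeast the genes of these factors form much of the ribosome biogenesis regulon, which is known for being expressed in step with growth and for being repressed as one block in many stresses.

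All values are log2 ratios between the treated and the untreated part of a culture, turned so that the 4 arrays share 1 direction. No label names the numerator channel, so the sign was set by SLT2, the gene of the cell wall integrity kinase, which is positive by this choice (2.39 and 2.31 on the Cy5 arrays, 2.14 and 2.18 on the Cy3 arrays). A negative value thus means opposite to SLT2, and no value here states which part of the culture had the higher level. SLT2 is known to be induced by wall damage, as background only. A log2 value of -1 or 1 would be a 2-fold difference. Over the 4543 ORFs with a value on all 4 arrays the array medians lay between -0.05 and 0.04. In RNA of a whole culture, less transcript per cell and fewer cells with the transcript cannot be told apart.

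By their means over 4 arrays, the assembly factors with all values lay opposite to SLT2 together, each by less than 2-fold. Of the 35 members 32 had a value on all 4 arrays, and all 32 had a mean below 0, where 56.7% of all ORFs did. Their median of the mean log2 ratio was -0.38, against -0.03 over all ORFs, and the means ran from -0.63 for MAK21 to -0.07 for NUG1. The size was graded by array: the members' median was -0.52 and -0.60 on the Cy5 arrays and -0.13 and -0.25 on the Cy3 arrays. Members below 0 numbered 31 of 32 for array 2 and 30 for array 4, against 2465 and 2467 of the 4543 ORFs. Array 1 had 23 members and 2090 ORFs below 0, while array 3 had 26 members and 2590 ORFs. A value below 0 on every array was found for 18 members, with 15.3% of all ORFs doing so, and none of the 32 was above 0 on every array. Ranked by mean, 20 of the 32 were among the lowest-ranked 454 ORFs (9.99% of all by construction).

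**Figure D1:**
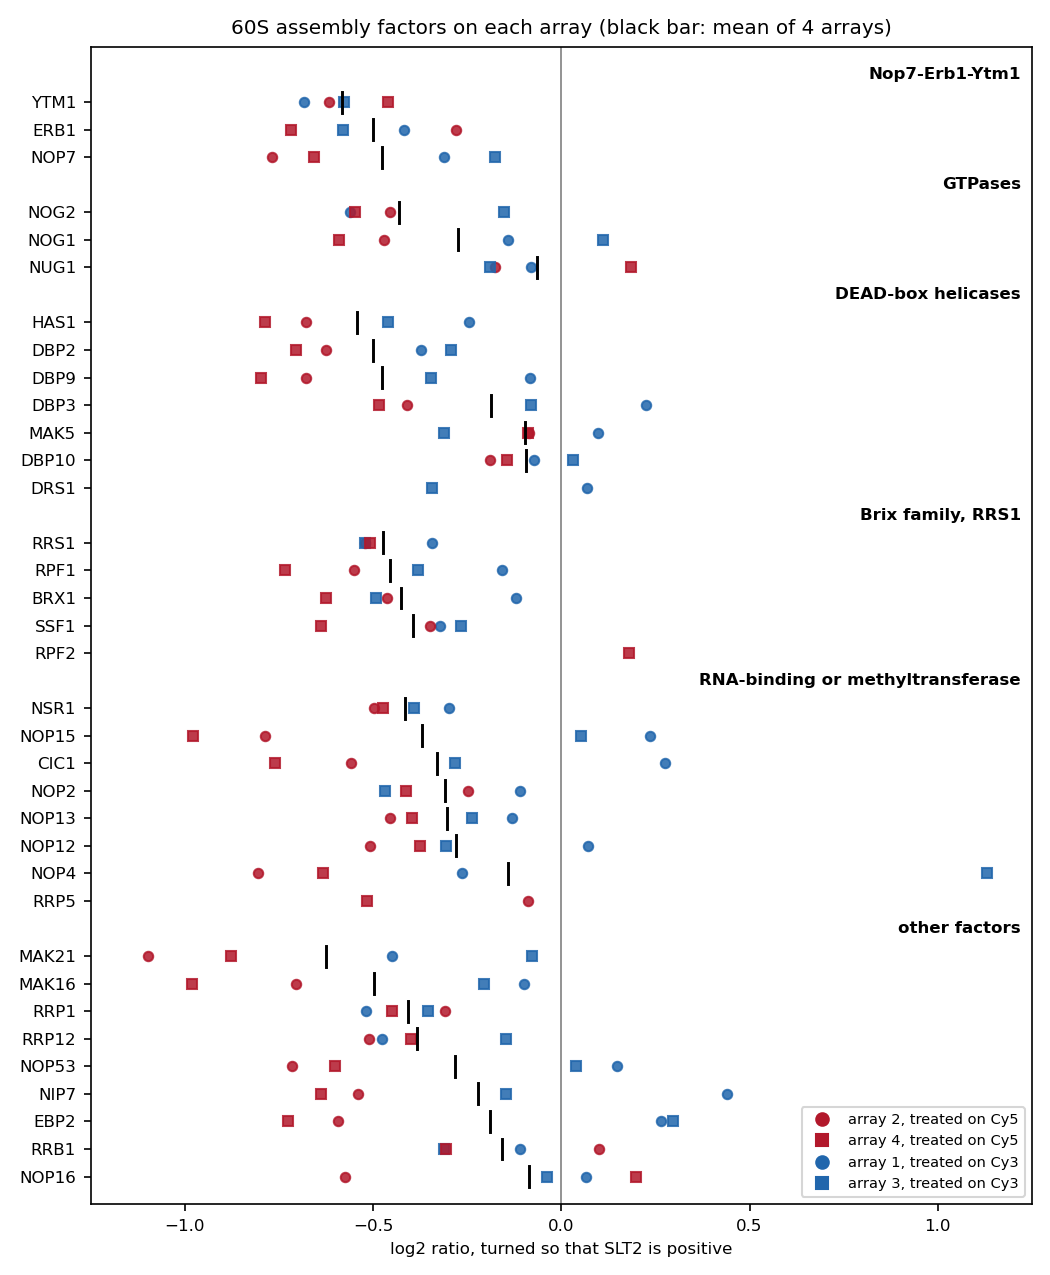
Log2 ratio (x axis, positive on the side of SLT2) of each of the 35 members on each array, in 6 role classes, with red for treated RNA on Cy5, blue for treated RNA on Cy3, and a black bar for the mean where all 4 values exist. Most points lie left of 0, and in many rows the red points lie left of the blue ones.

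Few single genes passed the test. In limma's moderated test on culture averages, with the larger p of the 2 possible array pairings kept and Benjamini-Hochberg adjustment over 4543 ORFs, 3 of the 32 members were past the threshold of 0.05 opposite to SLT2, namely MAK21, YTM1 and HAS1. That is 9.38% of them, where 1.39% of all ORFs were called on that side. On the side of SLT2 limma called 4.56% of all ORFs and 0 members, which follows from all 32 means being below 0. At an unadjusted p below 0.05 in the same fit, 22 members lay opposite to SLT2, against 9% of all ORFs. DBP2 (adjusted p = 0.0506 in limma) and MAK16 (0.0576) came just outside the threshold.

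The Nop7, Erb1 and Ytm1 proteins form one complex that binds early large subunit particles and is later pulled off them by an ATPase. Its genes were the role class with the lowest median mean, -0.50, and all 3 were below 0 on every array. YTM1 (YOR272W), the WD-repeat subunit, had -0.62 and -0.46 on the Cy5 arrays and -0.68 and -0.58 on the Cy3 arrays. Its mean was -0.58 ± 0.09 (SD over 4 arrays, n = 2 cultures; adjusted p = 0.0283 in limma), and its values in the 2 dye orientations overlapped. ERB1 (YMR049C), the scaffold on which Ytm1 and Nop7 meet, averaged -0.50 ± 0.19 and did not pass (adjusted p = 0.0668 in limma). NOP7 (YGR103W), the yeast counterpart of vertebrate pescadillo, had -0.77 and -0.66 on the Cy5 arrays and -0.31 and -0.18 on the Cy3 arrays. Its mean of -0.48 ± 0.28 missed the threshold (adjusted p = 0.0612 in limma), and its 2 lower values were those with treated RNA on Cy5.

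The GTPases bind the particle at successive stages and were less alike. NOG2 (YNR053C), whose product occupies the site later taken by the export adaptor Nmd3, had -0.46 and -0.55 on the Cy5 arrays and -0.56 and -0.15 on the Cy3 arrays. Array 3 gave its smallest value, and its mean was -0.43 ± 0.19 (adjusted p = 0.0861 in limma). NOG1 (YPL093W), a GTPase that stays with the particle from the nucleolus to the cytoplasm, averaged -0.27 ± 0.32, with 1 of its 4 values above 0. NUG1 (YER006W), a nuclear GTPase needed for export of the subunit, had -0.18 and 0.19 on the Cy5 arrays and -0.08 and -0.19 on the Cy3 arrays, so its arrays did not share a sign. With a mean of -0.07 ± 0.17 it was the member nearest 0.

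DEAD-box RNA helicases unwind or remodel rRNA and its protein contacts on the particle. The 6 measured on all arrays divided into 3 with means from -0.54 to -0.48 and 3 with means from -0.19 to -0.09. HAS1 (YMR290C), a helicase that works on precursors of both subunits, had -0.68 and -0.79 on the Cy5 arrays and -0.25 and -0.46 on the Cy3 arrays. Its mean was -0.54 ± 0.24 (adjusted p = 0.0398 in limma), and every value with treated RNA on Cy5 was below every one with it on Cy3. DBP2 (YNL112W), a relative of mammalian p68 that also acts on messenger RNA, averaged -0.50 ± 0.20, and DBP9 (YLR276C), a helicase of early particles, -0.48 ± 0.32. Neither passed. DBP3 (YGL078C), which assists cleavage in the first internal spacer, had -0.19 ± 0.33, and MAK5 (YBR142W) -0.10 ± 0.17. DBP10 (YDL031W), a late nucleolar helicase, had -0.19 and -0.15 on the Cy5 arrays and -0.07 and 0.03 on the Cy3 arrays, a mean of -0.09 ± 0.10. DRS1 (YLL008W) had values only on arrays 1 and 3, 0.07 and -0.34, which differ in sign, and was not tested.

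The Brix-domain proteins, a family of rRNA-binding factors, and Rrs1, the partner with which Rpf2 brings the 5S RNA particle into the subunit, were close to one another. The 4 with all values had means from -0.47 to -0.39, each was below 0 on every array, and limma called 0 of them, with all 4 at an unadjusted p below 0.05. RRS1 (YOR294W) had -0.52 and -0.51 on the Cy5 arrays and -0.34 and -0.52 on the Cy3 arrays, a mean of -0.47 ± 0.09 (adjusted p = 0.0612 in limma). Only array 1 stood apart from the other values. RPF1 (YHR088W) averaged -0.46 ± 0.25 and BRX1 (YOL077C) -0.43 ± 0.21. SSF1 (YHR066W) had -0.35 and -0.64 on the Cy5 arrays and -0.32 and -0.27 on the Cy3 arrays, with array 4 lowest. Its mean was -0.39 ± 0.17 (adjusted p = 0.110 in limma), and its near-identical copy SSF2, which may share signal with it on the array, averaged -0.31 ± 0.16. RPF2 (YKR081C) had a value on array 4 only, 0.18, on the side of SLT2.

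RNA-binding factors and the methyltransferase NOP2 made up another 8 members, of which 7 had all values. limma called 0 of them, and 6 had an unadjusted p below 0.05. NSR1 (YGR159C), the yeast nucleolin, is known mainly for its part in making the small subunit rRNA, so the label of large subunit factor is loose for it. It had -0.50 and -0.47 on the Cy5 arrays and -0.30 and -0.39 on the Cy3 arrays, a mean of -0.42 ± 0.09 with little spread (adjusted p = 0.0888 in limma). NOP2 (YNL061W), which methylates a cytosine of the large subunit rRNA, averaged -0.31 ± 0.16, and NOP13 (YNL175C) -0.30 ± 0.15, both below 0 on every array. NOP12 (YOL041C), which helps fold the large subunit rRNA, averaged -0.28 ± 0.25. NOP15 (YNL110C) and CIC1 (YHR052W), which bind the second internal spacer, averaged -0.37 ± 0.60 and -0.33 ± 0.45, both with values on either side of 0. NOP4 (YPL043W), a protein with several RNA recognition motifs, had -0.81 and -0.63 on the Cy5 arrays and -0.26 and 1.13 on the Cy3 arrays. Array 3 alone was on the side of SLT2 and was the highest value of any member, and the mean was -0.14 ± 0.88, or -0.57 over the other 3 arrays. RRP5 (YMR229C), needed for both subunits, had -0.09 and -0.52 on arrays 2 and 4 and no other value.

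The remaining 9 members held both the lowest mean and some of the widest spreads. MAK21 (YDR060W), also called Noc1, acts with Noc2 on the earliest particles. It had -1.10 and -0.88 on the Cy5 arrays and -0.45 and -0.08 on the Cy3 arrays, so the 4 values were of 1 sign and the 2 orientations did not overlap. Its mean was -0.63 ± 0.45 (adjusted p = 0.0282 in limma), a 1.54-fold difference. MAK16 (YAL025C) and RRP1 (YDR087C), whose products join the particle in one module with Rpf1, averaged -0.50 ± 0.42 and -0.41 ± 0.09. RRP12 (YPL012W), a factor in the export of both subunits, averaged -0.38 ± 0.16. Those 4 genes were below 0 on every array. NOP53 (YPL146C), which recruits the exosome to trim the second internal spacer, averaged -0.28 ± 0.44, NIP7 (YPL211W) -0.22 ± 0.49 and EBP2 (YKL172W) -0.19 ± 0.55, each with values of both signs. RRB1 (YMR131C), the dedicated chaperone of ribosomal protein Rpl3, averaged -0.16 ± 0.20. NOP16 (YER002W) had -0.57 and 0.20 on the Cy5 arrays and 0.07 and -0.04 on the Cy3 arrays, so the negative sign of its mean, -0.09 ± 0.34, came from array 2, and the other 3 arrays averaged 0.075.

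The dye orientation moved with the size of the difference. With treated RNA on Cy5 the members' values, averaged over arrays 2 and 4, had a median of -0.52, against -0.21 over arrays 1 and 3 with treated RNA on Cy3. Over all ORFs the same medians were -0.03 and -0.02. Both values with treated RNA on Cy5 were below both with it on Cy3 for 20 of 32 members (62.5%), where 28.1% of all ORFs showed this, and the reverse held for 0 members and 27.4% of all ORFs. In the related lists described below, the first pattern held for 41.5% of other large subunit assembly genes and 43.5% of small subunit ones. It held for 47.9% of large subunit ribosomal protein genes, 33.3% of RNA polymerase I subunits and 40% of regulators. The lists did not share 1 dye direction. The median difference, Cy5 minus Cy3 orientation mean, was -0.28 for members. It was -0.24 and -0.14 for other large and small subunit assembly genes and -0.20 for ribosomal protein genes. For RNA polymerase I subunits it was 0.09 and for regulators 0.12. RSA4 and PWP2, of the 2 other assembly lists, showed the reverse pattern. EBP2, NOP15 and NOP53 were above 0 on both arrays 1 and 3 and below 0 on both arrays 2 and 4, a share of 9.38%, and 11.6% of all ORFs did the same. NOP15 showed it most widely among these 3, with -0.79 and -0.98 on the Cy5 arrays and 0.24 and 0.05 on the Cy3 arrays. At the other end YTM1, ERB1, RRP1, NOP2, RRS1 and MAK5 differed by less than 0.1 between the orientation means. The dye term of a limma fit to the 4 arrays called 0 members and 0% of all ORFs lower with treated RNA on Cy5. At an unadjusted p below 0.05 in that fit, 12 of 32 members and 529 of 4543 ORFs were lower. Higher at that p were 0 members and 450 ORFs. The lowest adjusted p among members was 0.116 in limma. The part of the dye in the members' sizes was not tested beyond these values.

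**Figure D2:**
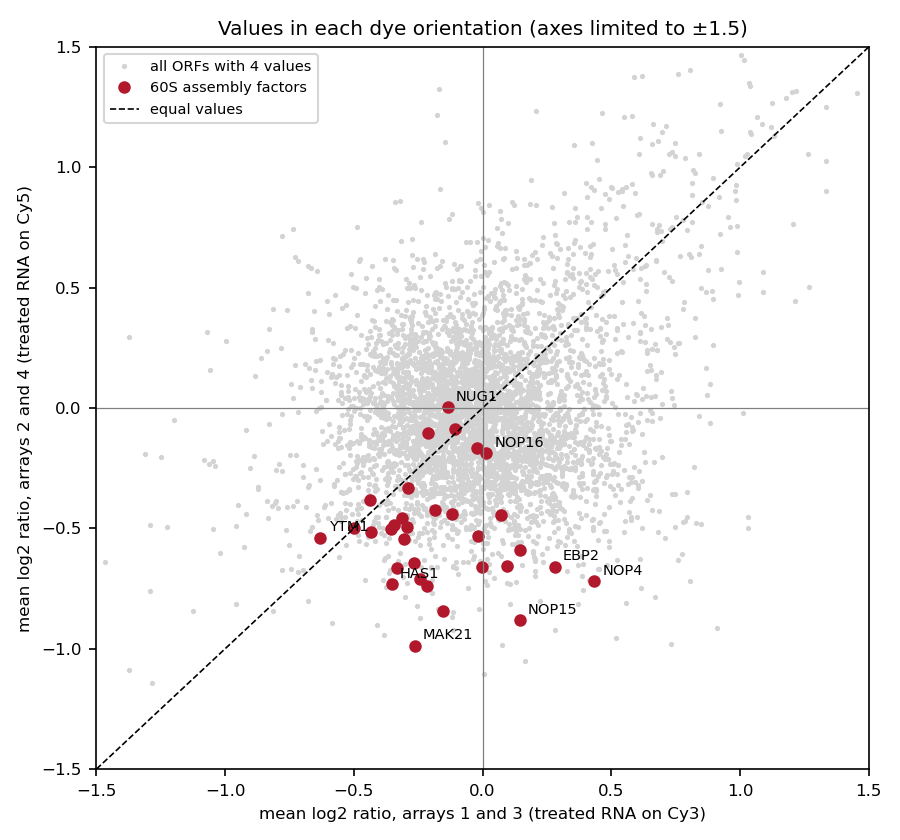
Mean log2 ratio on the arrays with treated RNA on Cy5 (y axis) against the arrays with treated RNA on Cy3 (x axis). Members are in red and all ORFs with 4 values in grey, with a dashed line of equal values. The axes are cut, so ORFs with larger values, SLT2 among them, are not shown. The members lie mainly to the lower left and 27 of 32 (84.4%) lie below the dashed line, where 49.1% of all ORFs do.

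The labels are read here as a dye swap within each culture, though they do not say so array by array. Under that reading the 2 arrays of an orientation come from different cultures. On arrays 2 and 4 alone, limma called 10 of 32 members opposite to SLT2 (1.63% of all ORFs), and on arrays 1 and 3 alone it called 0 (1.06% of all ORFs). No member passed in both. YTM1 had adjusted p = 0.0603 and 0.0715 in these 2 limma fits. Across the 32 members the values of arrays 2 and 4 had r = 0.61, while r for the other pairs of arrays ran from -0.32 to 0.25. The same pair was also highest over all ORFs, at 0.75, with 0.09 to 0.54 for the others. Each r is across genes, not across independent samples, and the Cy5 arrays share a dye orientation.

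Other genes of the pathway, in lists written from general knowledge with earlier results of these data known, had similar values. Of 53 further large subunit assembly genes with all values 4 were past the test opposite to SLT2 and 0 on its side, with a median mean of -0.30 and 52 means below 0. RSA4 (-0.54 ± 0.43), which docks the ATPase Mdn1 on the particle, and ECM1 (-0.53 ± 0.14), an export factor, were lowest and passed, as did IPI1 and REX4. PUF6 (-0.01 ± 0.25), an RNA-binding factor, and JJJ1 (0.23 ± 0.33), a cytoplasmic cofactor of Hsp70 that acts in recycling export factors, were highest and did not pass. Of 46 small subunit processome and 40S assembly genes 3 passed opposite to SLT2 and 0 on its side, with a median of -0.33 and all 46 means below 0. PWP2 (-0.58 ± 0.38) and KRE33 (-0.55 ± 0.06), an rRNA acetyltransferase, were lowest and passed, as did FAF1, and RRP3 (-0.08 ± 0.30) and LTV1 (-0.04 ± 0.25) were highest. Among 6 RNA polymerase I subunits limma called 0, although 4 had an unadjusted p below 0.05. Their median was -0.41 and all 6 means were below 0. RPA135 (-0.48 ± 0.44) and RPA43 (-0.45 ± 0.13) were their lowest, RPA12 (-0.25 ± 0.18) and RPA14 (-0.11 ± 0.34) their highest.

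The genes of the ribosomal proteins that these factors assemble had smaller values. Of 71 cytosolic large subunit ribosomal protein genes 0 passed in limma and 0 had an unadjusted p below 0.05, and their median mean was -0.13. Still, 70 of the 71 means were below 0, so a shared sign of the means was not particular to the assembly factors. On array 1, however, only 25 of the 71 genes were below 0. Values below 0 on every array were found for 25.4% of them and 15.3% of all ORFs. The shares were 56.2% of members, 52.8% of other large subunit assembly genes and 58.7% of small subunit ones. RPL40B (-0.26 ± 0.20) and RPL9A (-0.24 ± 0.07) were lowest and RPL35A (-0.02 ± 0.29) and RPL37A (0.00 ± 0.31) highest, and many of these genes have a near-identical copy that may share signal. Regulators of ribosome biogenesis genes had a median of -0.12 and limma called 0 of 10, with 3 at an unadjusted p below 0.05 and 9 means below 0. TOD6 (-0.34 ± 0.23), a repressor of the regulon, and RRN3 (-0.30 ± 0.15), an initiation factor of RNA polymerase I, were lowest, while the repressor DOT6 (-0.01 ± 0.29) and HMO1 (0.00 ± 0.10) were highest. No difference between these lists was tested.

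**Figure D3:**
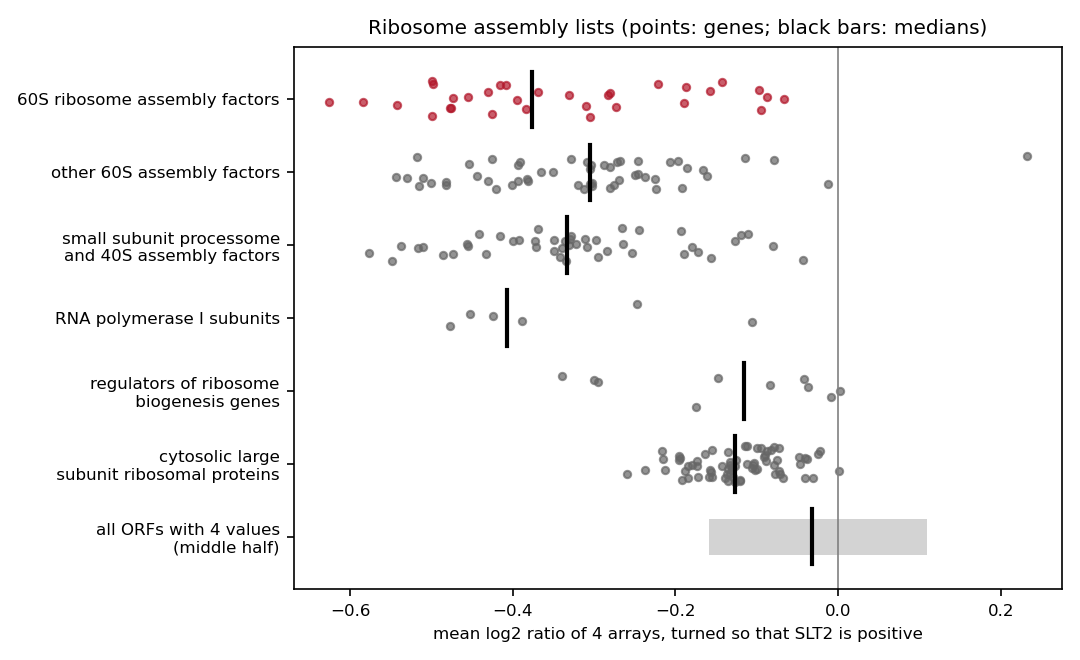
Mean log2 ratio over 4 arrays (x axis) of each gene in 6 lists, members in red, with black bars for medians and, for all ORFs, a grey bar from the lower to the upper quartile. The assembly and RNA polymerase I lists have medians from -0.41 to -0.30, the ribosomal protein and regulator lists -0.13 and -0.12.

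The number of members past the test depended strongly on how the arrays were fitted, while their median stayed negative. When array 1 was paired with 4 and array 2 with 3, limma called 23 of 32 members opposite to SLT2 (13.9% of all ORFs), and the other pairing alone called the same 3 as both together. Treating the 4 arrays as independent gave 16 with a dye term (4.25% of all ORFs) and 5 without one (1.5%), and robust empirical Bayes gave 17 (4.95%). The same dye-term model on ORFs with 3 or more values, which changes model and filter together, gave 15 (3.8%), and quantile normalization gave 5 (1.32%). With each array centred on its median 0 were called (0.594% of all ORFs), and likewise with scaling added (0.418%), although the median over members moved only to -0.36. When 1 array was left out the dye-term model was used as well, whose count on all 4 arrays was 16. Without array 1 the count was 1, HAS1 (0.991% of all ORFs), and without array 2 it was 1, ERB1 (0.858%). It was 3 without array 3 (1.32%) and 2 without array 4 (0.858%). MAK21, YTM1 and HAS1 thus each had an adjusted p above 0.05 in 6 of 15 other limma fits, with highest values of 0.464, 0.0743 and 0.298.

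**Figure D4:**
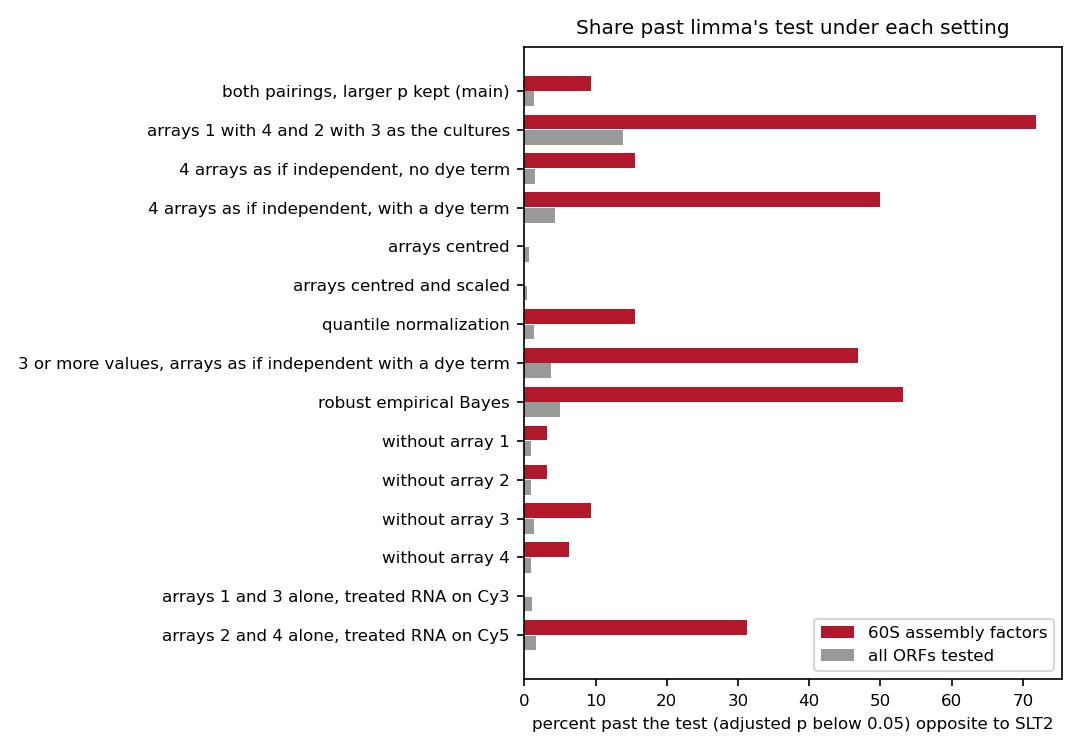
Percent of genes past limma's test opposite to SLT2 (x axis) under each setting, for the 32 members in red and all ORFs tested in grey. The members' share ran from 0 to 71.9% and that of all ORFs from 0.418% to 13.9%.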

How the data were processed

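The authors deposited 1 table of values per ORF and array, taken here as log2 ratios of the 2 channels, since values reach a size that log10 could not give, though the base is not stated. Normalization, background correction, numerator and the pairing of arrays with cultures are not given in the labels. No intensities were used, and precision is limited by having 4 arrays. Besides 6207 ORFs, 2 rows name no ORF and were left out. Empty cells made up 16% to 21.3% of ORFs per array. Values were turned by the labelled dyes and then so that SLT2 is positive, chosen with its values known. Deposited values of opposite orientation had r from -0.52 to -0.08.

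limma 3.58.1 in R 4.3.3 (lmFit, eBayes) was run on ORFs with 4 values. Arrays of a culture were averaged, both possible pairings fitted and the larger p kept, with a threshold of 0.05 after Benjamini-Hochberg adjustment. Each p-value rests on 2 culture averages, with a spread that limma's moderation draws partly from all ORFs. It is thus not a measure of a gene's own spread between cultures alone. The dye swap was taken to be within each culture. The fit was run on simulated data with independent noise on each array, no culture or dye effect, and planted effects larger than any member's mean. That run therefore does not bear on the calls made for members. Locus tags of all 35 members were found in RefSeq (assembly R64). The members and gene lists were chosen with earlier results of these data known. Each array is written out for called members and the highest and lowest of each class, and the 2 highest and 2 lowest of other lists are named. NOP15, IPI1, REX4, FAF1 and the neighbours of members fall outside that rule, picked once values were known. The 13 other settings and 2 added after seeing the data (each dye orientation alone) are given with the results, and the dye term and neighbours were also added then. Promoter elements were planned, and promoter sequences were not analysed here.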

Additional observations from a re-analysis of the deposited data

Results flagged for a closer look

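RRS1 had -0.34 on array 1 and -0.52 to -0.51 on the other 3, so array 1 stood far from the rest by Dixon's criterion for 4 values. Of the 32 members with 4 values it was the 1 that did so, and chance marks about 1 in 20 groups of 4 values.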

How the results depend on the processing

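The members' median log2 ratio was negative in each setting tried, from -0.40 to -0.32 when 1 array was left out, against -0.38. The count of members past limma's test opposite to SLT2 was 3, and was 23 when array 1 was paired with 4 and array 2 with 3, 5 and 16 for 4 independent arrays without and with a dye term, 15 for the dye-term model on ORFs with 3 or more values (2 choices changed together), 17 with robust empirical Bayes, 5 with quantile normalization, 0 with centring, 0 with centring and scaling, 10 on arrays 2 and 4 alone, 0 on arrays 1 and 3 alone, and 1 to 3 with 1 array left out. Fits with 1 array left out also hold a dye term, so their values weight both dye orientations equally and are not plain means. The cause was not tested. For all ORFs the counts opposite to SLT2 were 63, then 631, 193 (dye term), 189, 225, 27 and 19 in those settings that moved them, and 39 to 60 with 1 array left out. On the side of SLT2 they were 207, then 598, 319, 338 and 358 for the second pairing, the dye term, the dye term with 3 or more values, and robust empirical Bayes. Members of 1 sign numbered 18 on 4 arrays, all below 0, where 15.3% of all ORFs were below 0 on every array. On arrays 2 and 4 alone 29 members had 1 sign. Sharing a sign is easier on fewer arrays, and the share of all ORFs for that pair is not given here. Of 480 member values under the alternatives 376 kept their side of the threshold and their sign, 74 newly passed, 18 no longer passed and 12 changed sign. With 1 array left out these were MAK5 without array 3 (range over the 4 omissions -0.20 to 0.0046), NOP16 without array 2 (-0.28 to 0.11), NUG1 without array 2 (-0.16 to 0.025) and NOP4 without array 1 (-0.49 to 0.21). The plain means of the 3 arrays kept in these omissions were -0.026 for MAK5, 0.075 for NOP16, -0.029 for NUG1 and -0.10 for NOP4. Over all 128 omissions the plain mean changed sign 3 times, for NOP16 without array 2 and for NOP4 without array 2 (0.078) and without array 4 (0.020). The rest of the 12 were, on arrays 1 and 3 alone, NOP16 (0.013), DBP3 (0.073), EBP2 (0.28), NOP15 (0.14), NOP4 (0.43), NOP53 (0.093) and NIP7 (0.15), and on arrays 2 and 4 alone NUG1 (0.0041). None of these 12 passed the test. No paired analysis was possible because the arrays form 1 group of ratios that already pair treated with untreated RNA. Promoter alternatives were not run.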

Other observations

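The members lie on 12 chromosomes. In R64 gene order 32 upstream neighbours had values on all arrays, with a median mean log2 ratio of -0.03 and 19 below 0. Among them 4 (12.5%) passed limma's test, all on the side of SLT2, where 4.56% of all ORFs were called. No test compared neighbours with members. RTC3, before RPF1, averaged 3.76 ± 0.61, JLP2, before RRB1, 1.12, RTS3, before NSR1, 0.83 and SLU7, before RRP1, 0.82, and all 4 are transcribed in the same direction as the member. Of 15 neighbours transcribed away from the member, 10 pairs had both genes measured, and in these the members' median was -0.41 and the neighbours' -0.06, 7 of the 10 neighbours being below 0, with 0 neighbours past the test in limma. HAS1 (-0.54 ± 0.24) stands beside TDA1 (0.52, adjusted p = 0.0525 in limma) and MAK21 (-0.63 ± 0.45) beside UBC5 (0.48, adjusted p = 0.0576 in limma), the 2 widest gaps of those 10 pairs.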
